A study of Homo sapiens with 6 samples.

Results

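Integrins and laminins are the receptors and ligands with which cells hold on to the basement membrane, and their genes were taken from the deposited counts by gene symbol, which gave 18 integrin alpha subunits (ITGA), 8 integrin beta subunits (ITGB) and 12 laminin chains (LAMA, LAMB and LAMC), 38 of the 57341 named genes. The RNA came from H295R, an established human adrenocortical carcinoma cell line. One group is the parental line and the other is H295R-PM-Ptc+, a fraction of that line that was sorted for surface display of the Hedgehog receptor Ptch1 and amplified afterwards, with 3 libraries each. Both groups were grown in the same medium, and neither received a treatment. Nothing in the descriptions says that the replicates were separate cultures or sorts, so p-values measure the spread between these libraries, which may be technical, and the comparison rests on a single line and its sorted fraction.

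The libraries held between 23264403 and 25813247 fragments on named genes. PTCH1, on which the cells were sorted, had 441, 559 and 579 counts in the libraries labelled H295R and 248, 326 and 319 in those labelled H295R-PM-Ptc+. It was therefore lower under the label that names its sorting (log2 fold change -0.81 ± 0.147 (SE), adjusted p = 0.0207). The adjusted p rose to 0.0799, 0.0921 and 0.0618 without H295R replicate 2, H295R replicate 3 and H295R-PM-Ptc+ replicate 2. It fell to 0.00637 without H295R replicate 1, to 1.72e-06 with the replicate number as a block and to 7.09e-05 with DESeq2. PTCH1 stayed lower in all these fits. The study's own table of normalized values carries the group names the other way round for all 6 libraries. Which set of names is right cannot be told from the counts. Every direction given here follows the labels of the deposited table and would turn round under the other names. Of 10 adrenocortical genes 9 were expressed at levels that could be tested, among them NR5A1, the transcription factor that drives steroidogenic genes, at 367 ± 40.8 and 351 ± 10.5 CPM (counts scaled to library size with TMM, mean ± SD of 3 libraries, labelled H295R and H295R-PM-Ptc+).

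An integrin is a dimer of an alpha and a beta subunit that spans the plasma membrane. The alpha subunit largely sets the ligand. ITGA3, ITGA6 and ITGA7 bind laminin, ITGA1, ITGA2, ITGA10 and ITGA11 bind collagen, and ITGA5, ITGA8, ITGAV and ITGA2B recognise the RGD motif of fibronectin and related proteins. Inside the cell, talin and kindlins bind the beta subunit and couple it to actin. A laminin is a trimer of an alpha, a beta and a gamma chain, which polymerises into the sheet that underlies the basement membrane, a matrix that also surrounds the cords of cells in the adrenal cortex.

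Most of the integrin message of these cells came from a few genes. Levels between genes are compared as FPKM, fragments scaled by merged exon length and TMM library size, given as mean ± SD of 3 libraries labelled H295R and then of 3 labelled H295R-PM-Ptc+. ITGB1, the beta subunit shared by the laminin, collagen and several RGD receptors, stood at 101 ± 9.56 and 93.9 ± 9.38 FPKM and made up 95.1% ± 0.627 and 95% ± 0.763 of the summed beta subunit level. The next beta subunit, ITGB5, which pairs with ITGAV, had 4.61 ± 0.111 and 4.14 ± 0.361 FPKM. Among alpha subunits ITGA7, the main laminin receptor of muscle, led with 58.4 ± 2.78 and 61.6 ± 6.54 FPKM and 44.5% ± 4.83 and 41.6% ± 0.848 of the summed alpha level. ITGAV followed with 23.2 ± 5.43 and 24.1 ± 5.59, ITGA9 with 22.2 ± 5.62 and 25 ± 3.79 and ITGA1 with 14.6 ± 2.86 and 19.98 ± 2.38 FPKM. ITGAV and ITGA9 lay within each other's spread, while each library had more ITGA7 than of any other alpha subunit. All laminin chains together were led by LAMB1 at 64.2 ± 10.1 and 77.3 ± 11.1 FPKM, ahead of LAMA2 at 38.8 ± 10.6 and 40.6 ± 11.2, LAMC1 at 30.4 ± 7.47 and 38.1 ± 9.04 and LAMB2 at 31.4 ± 2.23 and 32.4 ± 2.53 FPKM, with overlapping spreads among the last 3. LAMA2 alone made up 94.8% ± 1.2 and 94.2% ± 1.27 of the laminin alpha level.

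**Figure D1:**
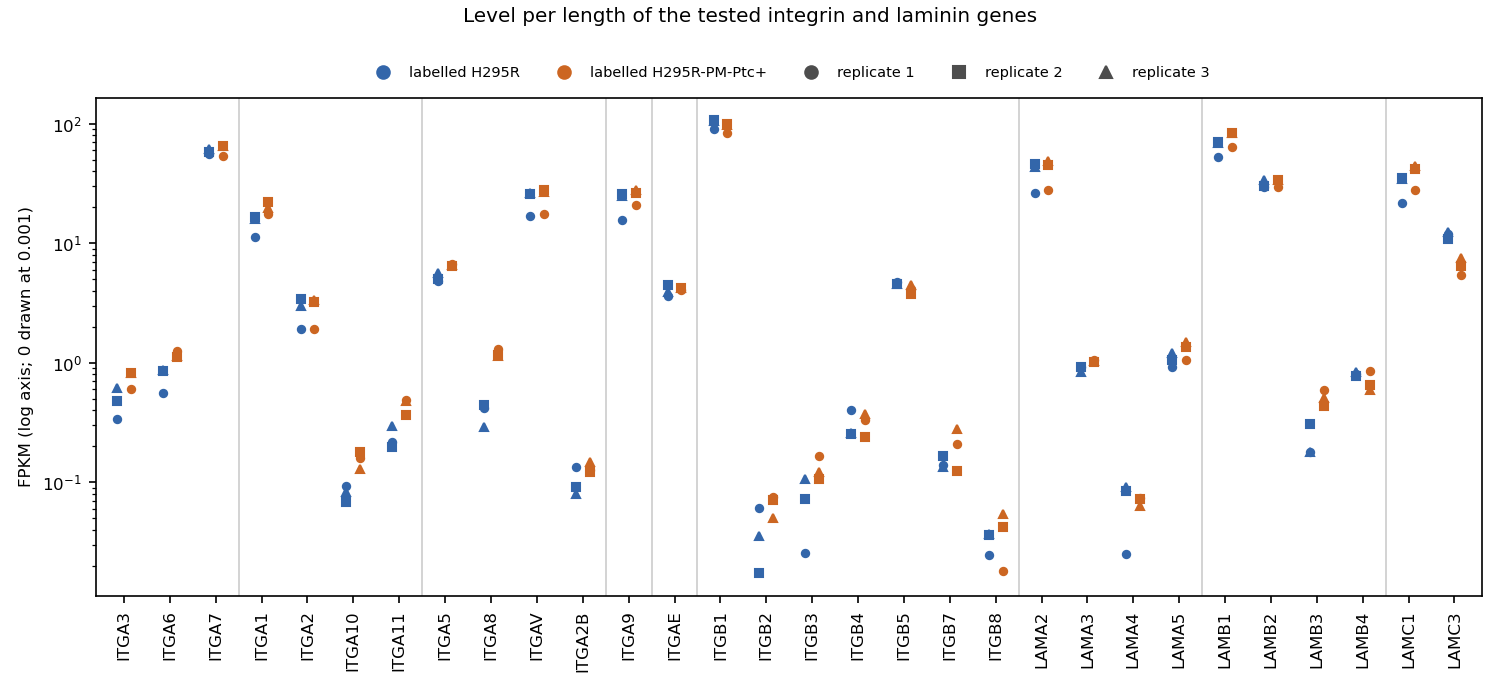
Level of each of the 30 tested genes in each library, in FPKM on a log axis, with vertical lines between laminin-binding, collagen-binding, RGD-binding, alpha4 and alpha9, leukocyte and beta integrin subunits and laminin alpha, beta and gamma chains. ITGB1, ITGA7, LAMB1, LAMA2, LAMC1 and LAMB2 stand highest, and ITGB1 reaches 101 and 93.9 FPKM in the group means.

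At the other end, 8 of the 38 genes held too few counts to be tested. ITGAD had no count in any library, and a count of 0 in a single library allows up to 3 counts there. ITGA4 had 0, 0 and 0 counts in the libraries labelled H295R and 2, 0 and 2 in those labelled H295R-PM-Ptc+, and ITGAM had 0, 0 and 0 and 2, 2 and 1. ITGAL, ITGAX, ITGB6 and LAMA1 held between 0 and 4 counts in each library, and no fold is given for any of these genes. Most are subunits of leukocytes, and 5 of 8 leukocyte markers, PTPRC among them, likewise had at most 3 counts in every library. The summed level of those 8 markers lay between 0.93 and 1.63 CPM in the libraries labelled H295R and between 1.77 and 2.07 CPM in the others.

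The integrin subunits ITGA8, ITGA11 and ITGA5 and the laminin chain LAMB3 were higher, and the laminin chain LAMC3 was lower, under the label H295R-PM-Ptc+. Among 30 integrins and laminins with enough counts, 5 had an adjusted p under 0.05, which is 16.7% against 3.73% of all 16710 genes tested (edgeR's quasi-likelihood test, two-sided, adjusted over all genes). ITGA8, LAMB3, ITGA11 and ITGA5 were higher, 4 genes where 2.42% of all genes were called higher, and LAMC3 was lower, where 1.32% were called lower. The median log2 fold change of the 30 was 0.24, against 9.39e-04 over all genes, and 26 of the 30 values were above 0. These 30 had to pass a filter on low counts, which genes raised in either group pass more easily.

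Same-numbered replicates of the groups deviated together, and with the replicate number as a block 13 of the 30 genes (43.3%) had an adjusted p under 0.05, where 22.5% of all genes did (12.1% higher and 10.4% lower). The 13 were 12 higher genes, namely the 4 above with ITGA1, ITGA3, ITGA6, ITGA9, ITGA10, LAMA5, LAMB1 and LAMC1, and the lower LAMC3. Of the 8 genes that the block added, ITGA1, ITGA3 and ITGA6 were also called without a filter on low counts, and ITGA1, ITGA3, LAMA5, LAMB1 and LAMC1 with replicates 2 and 3 only. In 10 of the 30 genes the 3 libraries of one label lay wholly above those of the other, 8 with H295R-PM-Ptc+ higher and 2 with it lower, a share of 33.3% beside 23.5% of all genes (12.4% and 11.2%). DESeq2 called 5 higher and 1 lower, against 5.45% of all genes (3.37% and 2.08%). Without a filter on low counts edgeR called 7 and 1, against 3.59% of all (2.25% and 1.33%). In 19 of 30 the 3 same-numbered pairs moved in a common direction (16 up and 3 down), as they did in 52.6% of all genes. With any 1 library left out between 1 and 2 genes were called higher, ITGA8 in each of the 6 fits, while LAMC3 was called lower in all 6. The share of all genes called in these fits, which hold fewer libraries, was not computed. The fall from 4 therefore cannot be read as particular to these genes. ITGA1, ITGA3, ITGA5, ITGA6, ITGA8, ITGA11, LAMB3 and LAMC3 belong to 1 of the study's network modules, which was built on these libraries, so the module is not independent evidence for them.

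**Figure D2:**
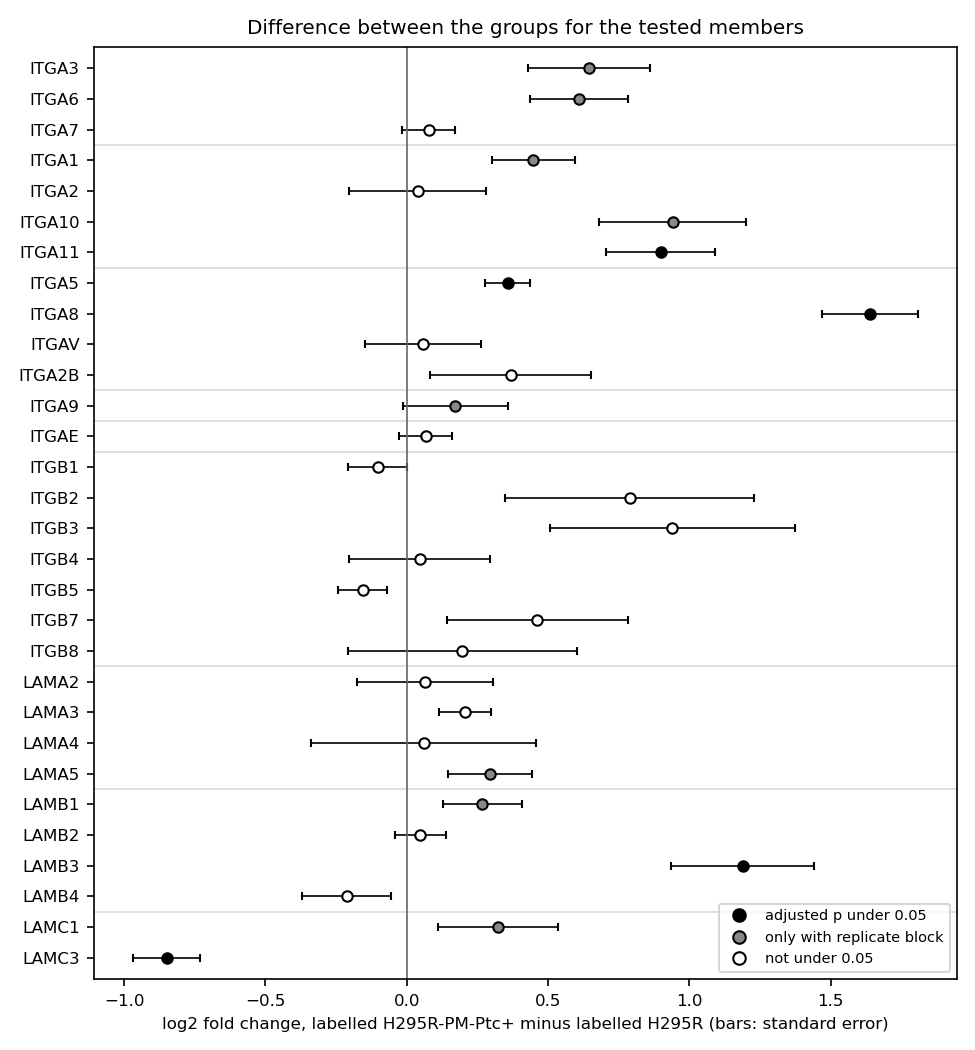
Log2 fold change of the 30 tested genes on the horizontal axis, libraries labelled H295R-PM-Ptc+ minus those labelled H295R, with bars of 1 standard error and lines between the kinds of subunit. Black points (5) had an adjusted p under 0.05, grey points (8) had one with the replicate block but not without it, and LAMC3 is the single black point left of 0.

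ITGA8, whose dimer with ITGB1 is a receptor for nephronectin, tenascin and osteopontin, had the largest difference of the 30 and lies on chromosome 10 from 15513949 to 15720125 (hg38). Its counts were 76, 85 and 54 in the libraries labelled H295R and 251, 218 and 198 in those labelled H295R-PM-Ptc+, or 3.18, 3.35 and 2.18 against 9.82, 8.77 and 8.55 CPM. All 3 libraries labelled H295R-PM-Ptc+ lay above the others, 3.11-fold higher by the fit (log2 fold change 1.64 ± 0.17 (SE), adjusted p = 0.00128). The same-numbered pairs differed by 1.63, 1.39 and 1.97 (log2). Omitting single libraries kept the log2 fold change between 1.46 and 1.75 and the adjusted p at or under 0.00708. Its level per length remained low, at 0.386 ± 0.0835 and 1.2 ± 0.090 FPKM. Of the 50 tested genes flanking it, 25 on each side by start position, 24 had values above 0 and 26 below. Their median log2 fold change was -0.00376, over starts from 11742366 to 22321211.

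Of the other RGD receptors, ITGA5, the fibronectin receptor, moved less but with a small spread. ITGA5 had 36.4, 37.9 and 42.5 CPM in the libraries labelled H295R and 51.1, 48.5 and 49.9 CPM in those labelled H295R-PM-Ptc+, which do not overlap and differ by 1.28-fold (log2 fold change 0.36 ± 0.0808 (SE), adjusted p = 0.0479). Its call was lost whichever single library was left out, with adjusted p between 0.0661 and 0.178, and also with a minimum of 10 counts in each library (0.0518). It stood at 4.08e-04 with the replicate block. ITGAV, which binds vitronectin and latent TGF-beta, overlapped between the groups at 190.3 ± 44.6 and 198 ± 45.9 CPM (log2 fold change 0.06 ± 0.205 (SE), adjusted p = 0.93). ITGA2B, the platelet subunit, held 18, 13 and 11 counts in the libraries labelled H295R and 18, 17 and 19 in the others, a log2 fold change of 0.37 at an adjusted p of 0.578.

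The promoters of the 4 genes that were called higher are shown because they share a direction, as RefSeq gives them from 250 bases before to 50 bases after the start of each gene on GRCh38.p14, ITGA8 at chr10:15719873-15720172 on the minus strand, ITGA5 at chr12:54419217-54419516 on the minus strand, ITGA11 at chr15:68432114-68432413 on the minus strand and LAMB3 at chr1:209652376-209652675 on the minus strand. Capitals mark GC boxes (GGGCGG on either strand), where Sp1 family factors can bind, and the AP-1 motif (TGANTCA on either strand). Matches may overlap, as in ITGA8.
ITGA8: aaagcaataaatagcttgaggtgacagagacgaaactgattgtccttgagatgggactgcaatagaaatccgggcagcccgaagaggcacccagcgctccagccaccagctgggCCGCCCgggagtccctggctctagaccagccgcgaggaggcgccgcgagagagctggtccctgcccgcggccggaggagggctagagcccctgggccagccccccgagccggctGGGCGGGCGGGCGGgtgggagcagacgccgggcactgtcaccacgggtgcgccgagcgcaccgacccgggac
ITGA5: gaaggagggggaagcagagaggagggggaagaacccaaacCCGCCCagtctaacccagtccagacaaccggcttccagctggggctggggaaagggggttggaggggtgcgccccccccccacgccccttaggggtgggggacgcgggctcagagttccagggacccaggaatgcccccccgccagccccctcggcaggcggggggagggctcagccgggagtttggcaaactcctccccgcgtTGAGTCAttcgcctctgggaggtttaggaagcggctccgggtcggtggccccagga
ITGA11: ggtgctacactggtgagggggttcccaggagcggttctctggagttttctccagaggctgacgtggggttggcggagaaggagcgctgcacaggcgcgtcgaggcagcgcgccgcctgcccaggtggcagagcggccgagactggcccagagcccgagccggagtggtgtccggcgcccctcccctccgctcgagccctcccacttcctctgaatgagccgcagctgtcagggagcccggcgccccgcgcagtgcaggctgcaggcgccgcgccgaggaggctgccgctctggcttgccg
LAMB3: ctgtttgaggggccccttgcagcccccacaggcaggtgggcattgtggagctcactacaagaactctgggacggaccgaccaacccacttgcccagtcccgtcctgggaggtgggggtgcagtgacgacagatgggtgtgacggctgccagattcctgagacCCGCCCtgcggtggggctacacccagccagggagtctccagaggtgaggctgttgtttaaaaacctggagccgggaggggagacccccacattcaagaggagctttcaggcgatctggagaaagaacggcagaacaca
ITGA8 holds 4 GC boxes, ITGA5 and LAMB3 hold 1 each and ITGA11 holds 0, while 45.0% of the 35116 RefSeq promoters of this length hold at least 1. The AP-1 motif occurs in ITGA5 among the 4 and in 7.71% of all promoters. Of the 30 tested genes 23 matched this promoter set by symbol, and 13 of those hold a GC box, 2 an AP-1 motif and 1 a TATA box (TATAAA, 11.5% of all). The NR5A1 motif AAGGTCA and the GLI motif GACCACCCA of Hedgehog signalling (both strands) were found in 0 and 0 of the 23, against 3.92% and 0.236% of all promoters. CpG dinucleotides numbered 27 in ITGA8, 16 in ITGA5, 29 in ITGA11 and 10 in LAMB3, beside a median of 14 over all. LAMC3, the gene called lower, has no entry in the set.

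**Figure D3:**
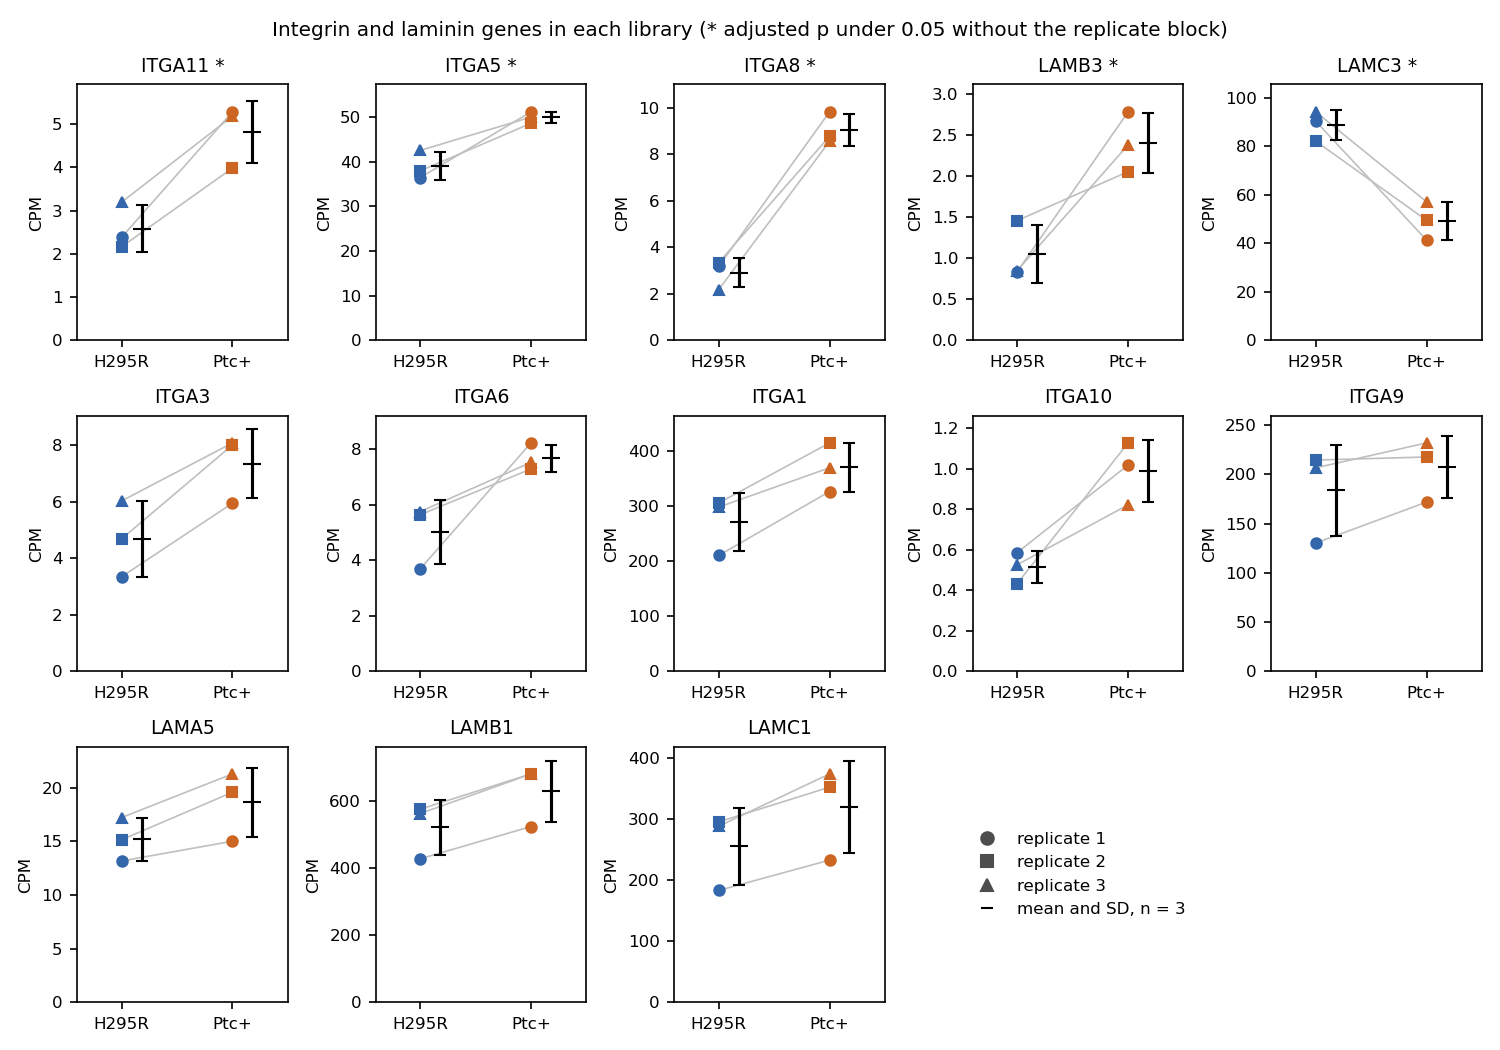
CPM of the 13 genes called with or without the replicate block, one panel per gene with its own axis from 0, by label (blue for H295R, orange for H295R-PM-Ptc+) and replicate (symbol), with lines between same-numbered replicates and the mean and SD of 3 libraries in black. In the 5 starred genes the groups do not overlap, while in LAMB1, LAMC1, LAMA5, ITGA3 and ITGA9 the groups overlap and each line rises to the right.

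Of the 4 collagen receptors ITGA11 was called without the block. ITGA11, a receptor of mesenchymal cells for fibrillar collagen, lies on chromosome 15 from 68296533 to 68432162. ITGA11 had 2.39, 2.17 and 3.2 CPM in the libraries labelled H295R and 5.28, 3.98 and 5.18 CPM in those labelled H295R-PM-Ptc+, without overlap and 1.86-fold apart (log2 fold change 0.90 ± 0.193 (SE), adjusted p = 0.0405). This call too was lost whichever library was omitted (adjusted p between 0.053 and 0.151), and it held with the replicate block at 4.07e-04. ITGA10, a cartilage collagen receptor, held only 14, 11 and 13 counts in the libraries labelled H295R against 26, 28 and 19, groups that do not overlap (log2 fold change 0.94 ± 0.26 (SE), adjusted p = 0.0904), and passed with the block (0.0312).

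ITGA1 is the collagen receptor these cells express most, and it lies on chromosome 5 from 52787896 to 52959210. ITGA1 had 211, 306 and 299 CPM in the libraries labelled H295R and 327, 415 and 370.2 CPM in those labelled H295R-PM-Ptc+. The groups did not overlap and differed 1.36-fold (log2 fold change 0.45 ± 0.148 (SE), adjusted p = 0.152), and each of the 3 pairs was higher, by 0.63, 0.44 and 0.31 (log2). The blocked fit gave an adjusted p of 1.36e-05, and leaving out both libraries of replicate 1 gave 0.00268. As a share of the summed alpha level, ITGA1 made up 11% ± 0.795 and 13.5% ± 0.759 (two-sided p = 0.1 by exact permutation, the least that 3 against 3 can give). Exons of PELO, which lies within ITGA1, overlap it on the same strand, and fragments there may be missing from its count. ITGA2, the other broad collagen receptor, had 21.8 ± 6.05 and 22.5 ± 6.21 CPM and a log2 fold change of 0.04 ± 0.242 (SE, adjusted p = 0.962).

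The laminin receptors were the abundant ITGA7 and the rare ITGA3 and ITGA6, none of them called without the block. ITGA7 had 357, 367 and 392 CPM in the libraries labelled H295R and 345, 418 and 415 CPM in those labelled H295R-PM-Ptc+, which overlap (log2 fold change 0.08 ± 0.0944 (SE), adjusted p = 0.753). ITGA6 had 3.68, 5.63 and 5.74 CPM in the libraries labelled H295R and 8.22, 7.28 and 7.52 CPM in those labelled H295R-PM-Ptc+, so that the groups lay apart at a log2 fold change of 0.61 ± 0.174 (SE, adjusted p = 0.0997). The pair of replicate 1 accounted for the largest of its differences, 1.16 against 0.37 and 0.39 (log2). ITGA3 had 3.35, 4.69 and 6.03 CPM in the libraries labelled H295R and 5.95, 8.0 and 8.08 CPM in those labelled H295R-PM-Ptc+, with the highest library labelled H295R above the lowest of the others (log2 fold change 0.64 ± 0.216 (SE), adjusted p = 0.157). The blocked fit called the pair, ITGA6 at 0.00526 and ITGA3 at 0.00109. ITGA6 also passed with DESeq2 (0.0384), and ITGA3 with replicates 2 and 3 only (0.0259). ITGB4, which pairs with ITGA6 alone in hemidesmosomes, held 65, 44 and 43 and 57, 40 and 59 counts, a log2 fold change of 0.05 ± 0.25 (SE, adjusted p = 0.957).

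None of the 7 tested beta subunits was called by edgeR, where 3.73% of all genes were (22.5% with the block, which called none of them either), by DESeq2 (5.45% of all) or by limma-voom (3.64%), and 0 had an unadjusted p under 0.05, as did 17.3% of all. With 7 genes, 0 calls is near the share of all genes without the block. ITGB1 had 540.2, 645 and 633 CPM in the libraries labelled H295R and 500.1, 605 and 588 CPM in those labelled H295R-PM-Ptc+. Each pair of ITGB1 was lower by a small amount, -0.11, -0.09 and -0.11 (log2), and the difference of -0.10 (log2, standard error 0.104) had an adjusted p of 0.696, or 0.0861 with the block. ITGB5 had 30.6, 29.3 and 29.3 CPM in the libraries labelled H295R and 26.8, 24.3 and 28.9 CPM in those labelled H295R-PM-Ptc+, the groups just apart (log2 fold change -0.16 ± 0.0862 (SE), adjusted p = 0.412). ITGB3, the partner of ITGAV and ITGA2B, held 3, 9 and 13 against 21, 13 and 14 counts, and its log2 fold change of 0.94 came with a standard error of 0.433 (adjusted p = 0.312). The leukocyte subunits ITGB2 and ITGB7 had 0.79 and 0.46 (log2, adjusted p = 0.416 and 0.528) from at most 29 counts a library, and ITGB8 had 0.20 (0.872). The summed beta level was 106 ± 9.39 and 98.8 ± 9.27 FPKM and the summed alpha level 132 ± 17.6 and 148 ± 18.5 FPKM (exact permutation test, p = 0.5 and 0.4, two-sided).

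ITGA9, which binds tenascin and VCAM1 and is close to ITGA4 in sequence, had 184 ± 46.5 and 207 ± 31.4 CPM and was called with the replicate block only (log2 fold change 0.17 ± 0.185 (SE), adjusted p = 0.719, or 0.0239 with the block). Its pairs differed by 0.40, 0.02 and 0.17 (log2), so that the block's call rests on a small difference. ITGAE, known as the E-cadherin receptor of intraepithelial lymphocytes, stood at 26.6 ± 2.87 and 27.9 ± 0.643 CPM here while its partner ITGB7 had at most 29 counts a library, and it did not pass (log2 fold change 0.07, adjusted p = 0.792). Exons of GSG2 lie opposite those of ITGAE on the other strand, and whether the counting kept them apart could not be checked from the counts. The same limit holds for exons opposite ITGA7 (BLOC1S1 and METTL7B), LAMB1 (DLD), LAMA5 (ADRM1) and ITGB7 (ZNF740), among others. Exons of EFCAB13 overlap ITGB3 on the same strand.

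Of the laminin gamma chains LAMC3 was called lower, and LAMC1 was called higher with the replicate block and with replicates 2 and 3 only. LAMC3, a gamma chain found at low level in several tissues, lies on chromosome 9 from 131009082 to 131094473 and had 2156, 2084 and 2326 counts in the libraries labelled H295R and 1056, 1230 and 1321 in those labelled H295R-PM-Ptc+. These are 90.2, 82 and 94.1 against 41.3, 49.5 and 57.1 CPM, with every library labelled H295R-PM-Ptc+ below the others, and the fit put the latter at 0.555 times the level of the former (log2 fold change -0.85 ± 0.118 (SE), adjusted p = 0.00541). Leaving out each library kept the adjusted p at or under 0.0341 and the log2 fold change between -0.98 and -0.74. The 50 tested genes flanking LAMC3 by start position, 25 on each side, had a median log2 fold change of -0.0285, against -0.13 around PTCH1 on the same chromosome. LAMC1 had 183, 296 and 288 CPM in the libraries labelled H295R and 233, 352 and 374 CPM in those labelled H295R-PM-Ptc+, which overlap, replicate 1 being the lowest under both labels. LAMC1, the gamma chain of most laminins, had a log2 fold change of 0.32 ± 0.213 (SE, adjusted p = 0.503), with the block 5.47e-05 and with replicates 2 and 3 only 0.00342, at 0.35, 0.25 and 0.38 (log2) in the 3 pairs.

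The share of each gamma chain in their sum lay apart between the groups, while the sum overlapped. LAMC3 made up 35.3%, 23.5% and 26.5% of the summed gamma level in the libraries labelled H295R, and 16.4%, 13.4% and 14.4% in the others (two-sided p = 0.1 by exact permutation, again the least possible). Its share was highest in replicate 1 under each label, where LAMC1 was lowest. Summed gamma levels were 42.1 ± 7.31 and 44.6 ± 10.02 FPKM (exact permutation test, p = 0.6).

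**Figure D4:**
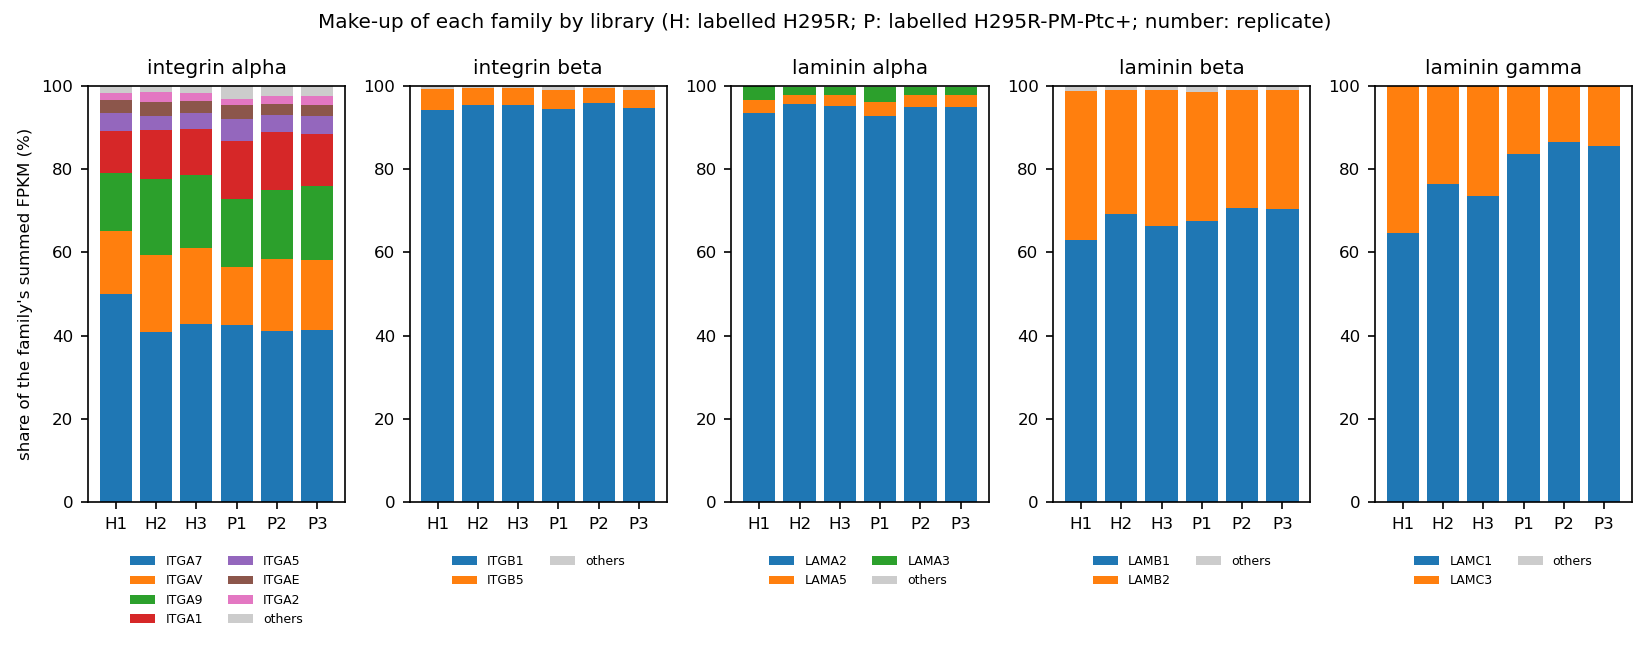
Share of each gene in the summed FPKM of its family, in percent, one stacked bar per library (H for libraries labelled H295R, P for those labelled H295R-PM-Ptc+, with the replicate number), for integrin alpha and beta subunits and laminin alpha, beta and gamma chains. The LAMC3 part of the gamma bars is 23.5% to 35.3% in the H bars and 13.4% to 16.4% in the P bars, while ITGB1 and LAMA2 fill at least 92.7% of their bars in all libraries.

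LAMB3, the beta chain of the hemidesmosomal laminin, had 20, 37 and 21 counts in the libraries labelled H295R and 71, 51 and 55 in those labelled H295R-PM-Ptc+, and lies on chromosome 1 from 209614870 to 209652466. In CPM these are 0.837, 1.46 and 0.85 against 2.78, 2.05 and 2.38, without overlap and 2.28-fold apart (log2 fold change 1.19 ± 0.254 (SE), adjusted p = 0.0392). The pairs differed by 1.73, 0.49 and 1.48 (log2), least in replicate 2, and leaving out H295R replicate 2 was the one omission that kept the call (adjusted p = 0.028, against 0.0575 to 0.152 for the other 5). With the block it stood at 0.00196, and without both libraries of replicate 1 at 0.052. Its partner LAMA3 had 12.1 ± 0.608 and 14 ± 0.342 CPM with the groups apart (log2 fold change 0.21 ± 0.0926 (SE), adjusted p = 0.298, and adjusted p = 0.0874 with the block).

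The abundant beta chain LAMB1 had 428, 576 and 563 CPM in the libraries labelled H295R and 524, 681 and 681 CPM in those labelled H295R-PM-Ptc+. The 3 pairs differed by similar amounts, 0.29, 0.24 and 0.27 (log2), though the groups overlapped (log2 fold change 0.27 ± 0.141 (SE), adjusted p = 0.383), and the blocked adjusted p was 2.21e-04. LAMB2, the beta chain of synapses and of the glomerulus, stood at 215 ± 15.3 and 223 ± 17.4 CPM (log2 fold change 0.05 ± 0.0888 (SE), adjusted p = 0.85). LAMB4, which lies beside LAMB1 on chromosome 7, had 5.69, 5.43 and 5.87 against 5.95, 4.55 and 4.15 CPM, a log2 fold change of -0.21 (adjusted p = 0.556), opposite in sign to its neighbour.

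The laminin alpha chains were led by LAMA2. LAMA2 had 269, 468 and 437 CPM in the libraries labelled H295R and 279.9, 458 and 489.9 CPM in those labelled H295R-PM-Ptc+. LAMA2, the alpha chain of muscle and peripheral nerve, varied far more between replicates than between labels (log2 fold change 0.06 ± 0.242 (SE), adjusted p = 0.933). LAMA5 had 13.2, 15.2 and 17.2 CPM in the libraries labelled H295R and 15, 19.6 and 21.3 CPM in those labelled H295R-PM-Ptc+, which overlap. LAMA5, the most widely expressed alpha chain in epithelia, passed with the block at 0.0106 (log2 fold change 0.29 ± 0.148 (SE), adjusted p = 0.362), and all 3 of its pairs were above 0 (0.19, 0.37 and 0.31, log2). LAMA4, the endothelial chain, held 7, 25 and 26 and 22, 21 and 17 counts (log2 fold change 0.06, adjusted p = 0.965), and 5 of 7 endothelial markers were at or under 3 counts in every library.

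For many of the abundant genes replicate 1 stood apart under both labels by more than the labels differed. Its CPM over the mean of replicates 2 and 3 was 0.593 and 0.59 for LAMA2 (libraries labelled H295R and H295R-PM-Ptc+), 0.60 and 0.588 for ITGA2, 0.628 and 0.641 for LAMC1 and 0.643 and 0.648 for ITGAV. ITGA9 had 0.619 and 0.765 and LAMB1 0.752 and 0.77. ITGA1 had 0.697 and 0.833, the latter a smaller gap than its 1.36-fold difference between the labels. Replicate 1 was the lowest library in both groups in 14 of the 30 genes (46.7%), where 26.4% of all genes were, and in 12 of the 15 with a mean of at least 1 FPKM. It was highest in both in 1 gene, against 27.1% of all. Among the called genes the ratios were 1.15 and 1.13 for ITGA8, 0.906 and 1.04 for ITGA5, 0.89 and 1.15 for ITGA11, 0.726 and 1.25 for LAMB3 and 1.02 and 0.776 for LAMC3. With both libraries of replicate 1 left out, a choice made after these values were seen, 8 genes were called higher and LAMC3 lower, where 12.0% of all genes were called (6.67% higher and 5.34% lower).

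**Figure D5:**
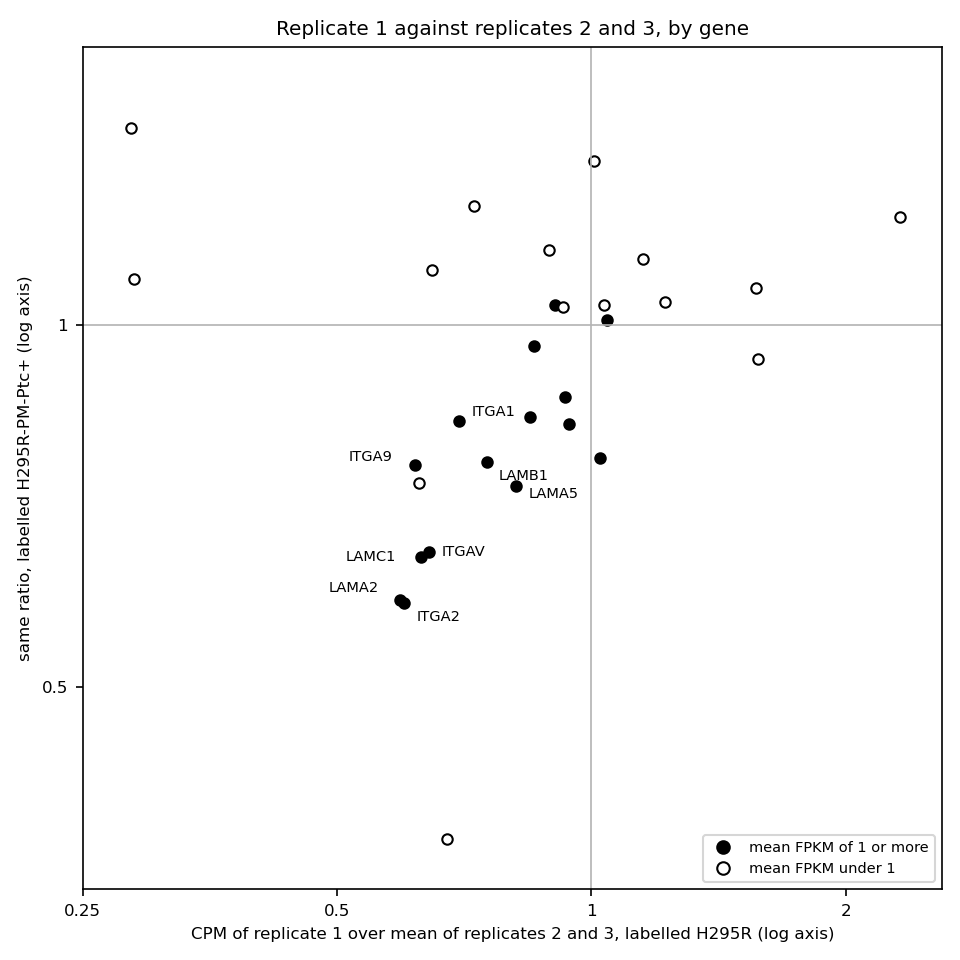
Ratio of replicate 1 to the mean of replicates 2 and 3 for each of the 30 tested genes, in the libraries labelled H295R (horizontal) and H295R-PM-Ptc+ (vertical), both on log axes, with grey lines at a ratio of 1. Filled points are the 15 genes with a mean of at least 1 FPKM, of which 12 lie below 1 on both axes, down to 0.593 and 0.590 for LAMA2.

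Of the proteins that integrins bind outside the cell, the ligand list of 25 genes had 19 tested, 3 called higher and 1 lower (beside 2.42% and 1.32% of all genes), with a median log2 fold change of 0.38. Osteopontin (SPP1), an RGD ligand, had 15.7, 19.4 and 17.6 CPM in the libraries labelled H295R and 43.6, 43.4 and 41.3 in those labelled H295R-PM-Ptc+ (log2 fold change 1.28 ± 0.0931 (SE), adjusted p = 3.93e-04). COL3A1, a fibrillar collagen, had 24.1, 22.6 and 23.3 against 68.9, 63.8 and 66.7 CPM (log2 fold change 1.51 ± 0.0737 (SE), adjusted p = 1.31e-04), and TGFBI, a matrix protein bound by several integrins, 0.209, 0.157 and 0.243 against 3.79, 4.87 and 3.41 CPM (log2 fold change 4.28 ± 0.275 (SE), adjusted p = 3.25e-04). COL5A1, another fibrillar collagen, went the other way, from 30.9, 33.9 and 43.3 to 15.6, 18.9 and 21 CPM (log2 fold change -0.96 ± 0.149 (SE), adjusted p = 0.00925). All 4 calls held with each library left out. TGFBI, with 5, 4 and 6 counts in the libraries labelled H295R, passed the filter on low counts through the other group, and it was not tested with a minimum of 10 counts in every library. Nephronectin (NPNT), the classical ITGA8 ligand, was abundant under both labels at 115 ± 4.54 and 124 ± 12.3 CPM (log2 fold change 0.12 ± 0.0893 (SE), adjusted p = 0.569). With the replicate block 9 were higher and 2 lower, beside 22.5% of all genes (12.1% and 10.4%), fibronectin (FN1, log2 fold change 0.54, adjusted p = 5.52e-04) and tenascin (TNC, log2 fold change 1.07, adjusted p = 5.85e-06) among the higher.

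The basement membrane list of 28 genes, with 24 tested and a median of 0.07 (log2), had 2 called higher and 2 lower, beside 2.42% and 1.32% of all genes. The heparan sulfate proteoglycan syndecan SDC2 was lower, at 16.7, 20.04 and 17.2 against 9.27, 10.7 and 10.2 CPM (log2 fold change -0.84 ± 0.111 (SE), adjusted p = 0.00426), and kept its call with each library left out. Of the multiplexins, basement membrane collagens that link to it, COL15A1 was lower at 178 ± 19.1 and 117 ± 8.81 CPM (log2 fold change -0.61 ± 0.0992 (SE), adjusted p = 0.012) and COL18A1 higher at 39.3 ± 4.43 and 57.3 ± 8.75 CPM (log2 fold change 0.55 ± 0.125 (SE), adjusted p = 0.0493). BCAM, a receptor for the LAMA5 chain, was higher at 30.8 ± 3.13 and 41.9 ± 3.09 CPM (log2 fold change 0.44 ± 0.0969 (SE), adjusted p = 0.0426). These 3 depended on single libraries, since COL15A1 lost its call in 3 of the 6 omissions, with adjusted p up to 0.058, and COL18A1 and BCAM in 5 each, up to 0.183 and 0.188. COL18A1 also lost it with relative log expression size factors (0.0504), limma-voom (0.055) and a minimum of 10 counts in each library (0.0554, adjusted p). With the replicate block 7 were higher and 7 lower, beside 22.5% of all genes (12.1% and 10.4%). The higher ones included nidogen NID1, which ties laminin to collagen (log2 fold change 0.24, adjusted p = 0.00172), and the lower ones the collagen chains COL4A1 (log2 fold change -0.27, adjusted p = 4.88e-04) and COL4A2 (log2 fold change -0.36, adjusted p = 2.56e-05). Dystroglycan (DAG1), the main laminin receptor outside the integrins, stood at 286 ± 29.96 and 303 ± 53.7 CPM (log2 fold change 0.08 ± 0.135 (SE), adjusted p = 0.824).

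Inside the cell, 28 of 33 genes of the integrin adhesion complex were tested, with a median log2 fold change of 0.11. edgeR called 0 without the block while 5 had an unadjusted p under 0.05, DESeq2 called 4 and limma-voom 0. Of all genes these took in 3.73% (edgeR), 17.3% (unadjusted), 5.45% (DESeq2) and 3.64% (limma-voom). With the block 6 were higher and 1 was lower, 7 of 28, where it called 22.5% of all genes (12.1% and 10.4%). This share is near that of all genes. The higher ones were led in level by alpha-actinin ACTN4 (609.7 ± 76.8 and 883 ± 125 CPM, log2 fold change 0.53, adjusted p = 0.057 without and 6.13e-07 with the block), and took in the tensins TNS1 (log2 fold change 0.44, adjusted p = 1.16e-04), TNS3 (log2 fold change 0.52, adjusted p = 7.85e-07) and TNS2, listed as TENC1 (log2 fold change 0.48, adjusted p = 7.81e-04), which bind beta subunit tails, with PARVB and ACTN1. The lower one was the kindlin FERMT2 (log2 fold change -0.21, adjusted p = 0.0138). Talin (TLN1) stood at 567 ± 99.1 and 600.2 ± 119 CPM with a log2 fold change of 0.08 (adjusted p = 0.87).

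Markers of other cell types were low under both labels. The 7 fibroblast markers summed to between 8.9 and 10.1 CPM in the libraries labelled H295R and between 10.7 and 13.1 CPM in those labelled H295R-PM-Ptc+, mostly from COL1A1. Of them THY1, a surface glycoprotein that is also an integrin ligand, was called higher (0.69 ± 0.0751 and 1.69 ± 0.247 CPM, log2 fold change 1.29 ± 0.226 (SE), adjusted p = 0.0175), while LUM, a defining one, had no count in any library. The 7 endothelial markers summed to at most 0.89 and 1.41 CPM. Of the adrenocortical genes CYP21A2, a steroid hydroxylase, was called higher (12.8 ± 2.19 and 23.5 ± 1.43 CPM, log2 fold change 0.88 ± 0.126 (SE), adjusted p = 0.0067), while the median log2 fold change of the 9 tested was -0.06 and NR5A1 was not called (log2 fold change -0.06, adjusted p = 0.797). With the block STAR, which carries cholesterol into mitochondria, was also higher (log2 fold change 0.41, adjusted p = 3.91e-06) and CYP11A1, which cleaves its side chain, lower (-0.24, 0.0010). The part of these markers in the differences of integrins and laminins was not tested. In RNA from whole cultures a change in the share of cells that express a gene cannot be told apart from a change in its level per cell.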

How the data were processed

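RNA libraries of 3 H295R and 3 H295R-PM-Ptc+ replicates were sequenced as read pairs from a stranded kit. The authors mapped reads with STAR 2.4.0a to hg38, used featureCounts and Ensembl gene models to assign fragments to gene names, with a strand-specific setting per the methods (which the counts alone cannot show) and multiply mapped reads at their primary position, and deposited raw counts, with gene coordinates and merged exon lengths. The Subread version is 1.5.0-p3 in the submitters' processing notes, which differs from the paper's. One row without a gene name, holding 0% of the counts, was left out.

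The test was run in R 4.3.3 by edgeR 4.0.16 on the counts (filterByExpr, TMM, quasi-likelihood F-test, group as the only term, Benjamini-Hochberg over all 16710 genes), after a check on simulated counts. The standard errors (SE) given with it are the absolute log2 fold change divided by the square root of the F statistic, not a value the fit returns. Shares and sums were compared by exact permutation. Alternatives were the replicate number as a block, DESeq2 1.42.0, limma-voom (limma 3.58.1), relative log expression size factors, all genes unfiltered, a minimum of 10 counts per library throughout, each library left out, and, added after the data were seen, replicates 2 and 3 only. Same-numbered replicates pair the groups by the data, since their deviations from the group means correlated at 0.594, 0.405 and 0.325 (other pairs -0.443 to 0.211), and their descriptions carry a common code across the groups, whose meaning no source used here states. Chi-square per gene between replicates was 5.97 to 28.3, above counting error.

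The genes and the lists of partners were chosen with earlier results of these data known. Named are the called genes, the 2 highest genes of each kind of subunit, the genes of the study's integrin module, and up to 3 called genes per list and direction. A few uncalled list genes (NPNT, DAG1, TLN1, FN1, TNC, NID1, COL4A1, COL4A2, ACTN4, the tensins, PARVB, ACTN1, FERMT2, NR5A1, STAR, CYP11A1 and LUM) and the other integrins and laminins were named after their values were seen. One gene with too few counts to be tested is not reported here. Promoter sequences are from RefSeq (GRCh38.p14). Tables and figures were made with Python 3.11.15, pandas 2.3.3 and matplotlib 3.10.9.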

Additional observations from a re-analysis of the deposited data

How the results depend on the processing

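The replicate block moved every count of calls except the 1 lower gene, LAMC3, to 12 integrins and laminins called higher from 4, 7 adhesion complex genes from 0, 14 basement membrane genes from 4 and 11 ligands from 4. No filter on low counts gave 7 higher, 6 adhesion complex genes and 8 ligands, DESeq2 4 adhesion complex genes, and replicates 2 and 3 alone 8, 6, 9 and 10 for the 4 counts. The cause was not tested. With each library left out the ranges were 1 to 2, 0 to 3, 1 to 3 and 4 to 5, and the share of all genes called in those fits was not computed. The block changed no other call of an integrin or laminin than those given in the text. The call of LAMC3 held in every alternative run, as did that of ITGA8. Over the 30 tested integrins and laminins, PTCH1 and the called genes of the 3 lists, 429 values kept their direction and side of the threshold, 17 gained and 38 lost the call, and 17 changed sign. The sign changes were in uncalled genes when a library was left out, with ranges of log2 fold changes of -0.17 to 0.25 (ITGA2), -0.13 to 0.23 (ITGAV), -0.0253 to 0.30 (ITGA9), -0.00583 to 0.15 (ITGAE), -0.11 to 0.29 (ITGB4), -0.14 to 0.54 (ITGB8), -0.15 to 0.27 (LAMA2) and -0.32 to 0.32 (LAMA4). LAMA4 was also at -0.36 with replicates 2 and 3 alone. The difference in the ITGB1 share of beta subunits was -0.0547 percentage points, and -0.478 to 0.263 with each library left out. The shares of ITGA1 and LAMC3 kept their direction in each alternative, and an exact sign-flip test over the 3 pairs (replicate block) gave p = 0.25 for each, its smallest value. Genes with few counts, such as ITGB2, ITGB3 and LAMA4, carry standard errors up to 0.44 (log2), so differences of that size in them were not detectable at this depth.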
